A study of Mus musculus with 24 samples.

Results

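The comparison described here sets mice on a diet with double the standard content of branched-chain amino acids (BCAA200) against mice on the standard content (BCAA100), and covers 12 of the 24 libraries of the study. They are the 6 BCAA200 libraries and the 6 BCAA100 libraries, which the sample titles also call Chow. Each group holds 3 females (replicates 1 to 3) and 3 males (replicates 4 to 6). The mice were C57BL6, ate ad libitum from 12 weeks of age, and gave hypothalamic RNA at 15 months. The diets, modified from AIN93G, matched in energy and macronutrients and held the 3 branched-chain amino acids, leucine, isoleucine and valine, at the 200% or the 100% level. The other 12 libraries come from diets at 20% and 50% (BCAA20 and BCAA50) and are used as a background. All BCAA200, BCAA50 and BCAA20 libraries were sequenced in lane 1 and all BCAA100 libraries in lane 2, so the diet and the lane cannot be told apart in this comparison. The bracketed numbers in the BCAA100 titles also lie below those of the other diets. Whether these numbers mark a separate cohort of animals is not stated, and such a difference could not be told apart from diet either.

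Leucine, isoleucine and valine cross the blood-brain barrier on large neutral amino acid transporters, which they share with tryptophan, the precursor of serotonin. In the brain they are transaminated by the BCAT enzymes, and the resulting keto acids are committed to breakdown by the branched-chain keto acid dehydrogenase (BCKDH) complex. Leucine also activates the mTORC1 kinase, and in the hypothalamus these routes are known for their part in the control of food intake.

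The 12 libraries were checked against marker genes before the diets were compared. The level of each gene is given as FPKM, fragments scaled to transcript length and library size, and the FPKM summed to between 293850 and 328809 over the 24 libraries. Slc17a7, the vesicular glutamate transporter of cortical and hippocampal neurons, lay between 119 and 250 FPKM in the BCAA200 libraries. It lay between 106 and 186 FPKM in 4 BCAA100 libraries and was at 3.99 and 12.6 FPKM in BCAA100 male replicates 5 and 6. The sum of 20 cortex and hippocampus markers ranged from 717 to 1547 FPKM with a median of 1031 FPKM in BCAA200, and from 220 to 1039 FPKM with a median of 686 FPKM in BCAA100. The sum of 30 hypothalamic nuclei markers ranged from 449 to 871 FPKM in BCAA200 and from 65.0 to 1357 FPKM in BCAA100, and 4 of those markers averaged under 0.5 FPKM. The lowest of these sums and a level of 0 FPKM for Hcrt, the orexin precursor, belonged to BCAA100 male replicate 6, whose thalamus marker sum of 553 FPKM was the highest of the 12. Markers of neighbouring regions were therefore present beside those of the labelled tissue, in amounts that varied between libraries. Whether a lower level means fewer cells of a type or less RNA per cell cannot be told apart in bulk tissue. Many counts are also given without male replicates 5 and 6 of BCAA100. Counts given for all 12 libraries alone may also move without them. Among the other lane 1 diets, BCAA50 female replicate 1 had 6.23 FPKM of Slc17a7. The library labelled BCAA20 male replicate 6 had 154 FPKM of Xist, the RNA that silences an X chromosome in females, and 0 FPKM of the Y-linked Ddx3y, against its label. It enters only the values by diet and the fits on 24 libraries, as labelled, and the sex-linked genes of the 12 BCAA200 and BCAA100 libraries matched their labels.

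**Figure D1:**
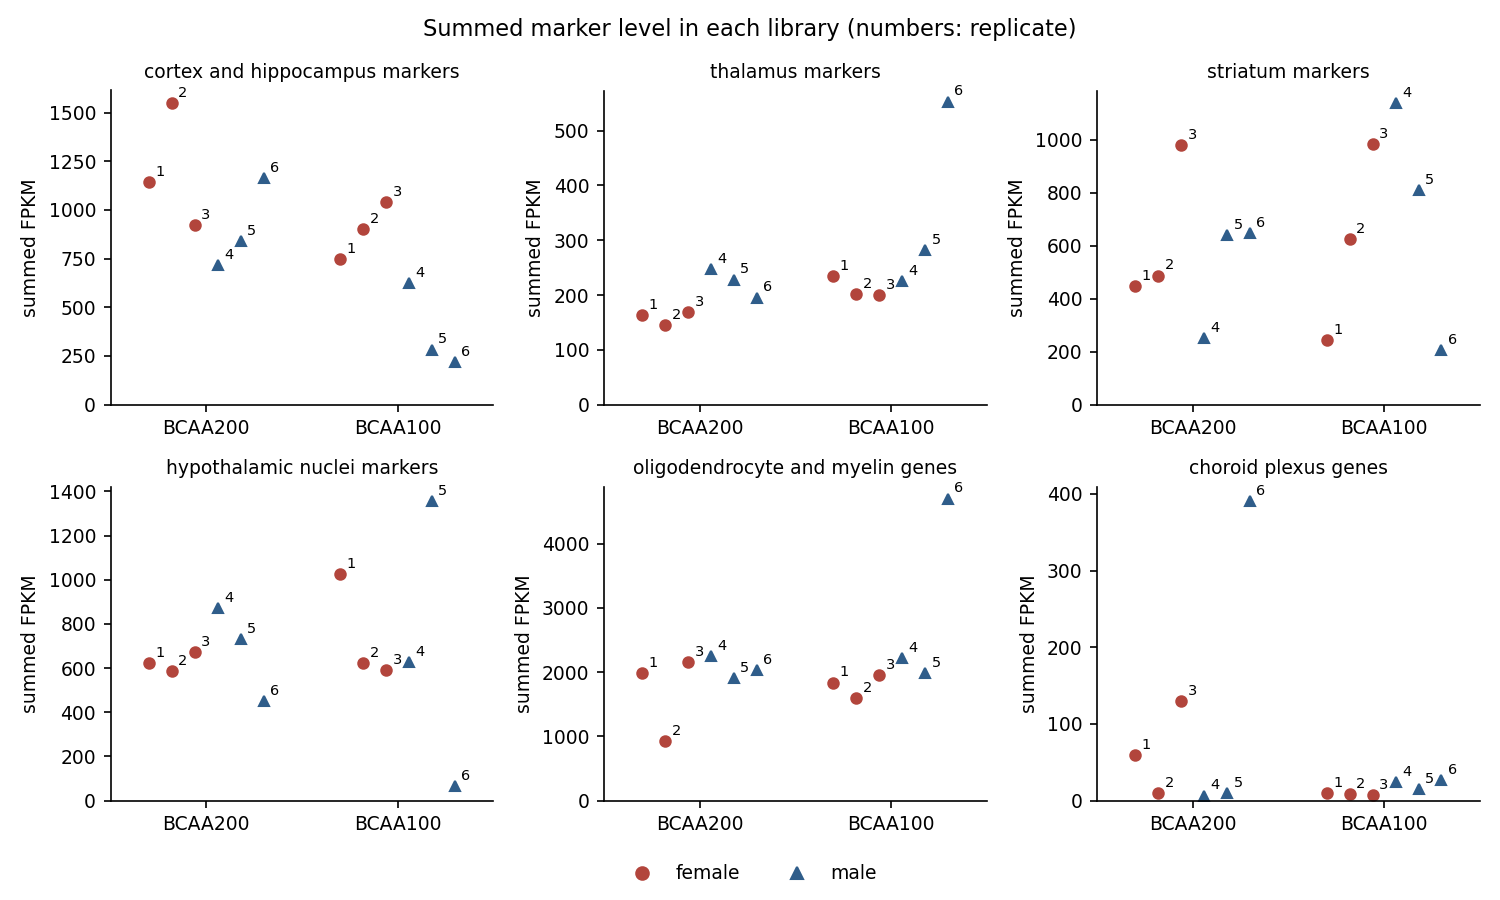
Summed FPKM of marker genes (vertical axes, linear, from 0) in each BCAA200 and BCAA100 library; circles are females, triangles are males, and the numbers are replicates. BCAA100 male replicates 5 and 6 had the lowest cortex and hippocampus sums of the 12 libraries, 283 and 220 FPKM, and BCAA200 male replicate 6 had the highest choroid plexus sum, 390 FPKM.

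The authors' table also lists each animal's BCAA intake, without a unit. Intake averaged 5.26 ± 0.559 in BCAA200 animals and 2.12 ± 0.272 in BCAA100 animals (SD, n = 6 each), and the ranges of 4.33 to 5.81 and 1.75 to 2.38 did not overlap. The difference of 3.13 had p = 0.00216 in a two-sided exact permutation test. Scaled to the standard BCAA content, the values were 2.63 ± 0.280 in BCAA200 and 2.12 ± 0.272 in BCAA100, a difference of 0.505 (two-sided exact permutation test, p = 0.0152, n = 6 each). Within 1 sex, 3 animals against 3 allow no p below 0.1.

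Across the genome, the hypothalamus of BCAA200 mice differed from that of BCAA100 mice past the threshold in 1 gene, Anapc4, which fell. The 13839 genes tested averaged 1 FPKM or more over the 12 libraries, and the call is 0.00723% of them, at a Benjamini-Hochberg adjusted p under 0.05 in limma with sex as covariate. At an unadjusted p under 0.05 there were 1275 genes, 9.21% of those tested, of which 471 (3.4%) were higher and 804 (5.81%) lower in BCAA200. The balance between higher and lower depended on the scaling of the libraries. Lower genes made up 63.1% of those 1275 on the deposited values, 41.2% after median ratio scaling and 46.4% after upper quartile scaling. The median log2 change of all genes was -0.05, with 62.7% of genes below 0 and 37.3% above. In 24 genes (0.173%) every BCAA200 library lay above every BCAA100 library, and in 54 genes (0.39%) every BCAA200 library lay below.

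**Figure D2:**
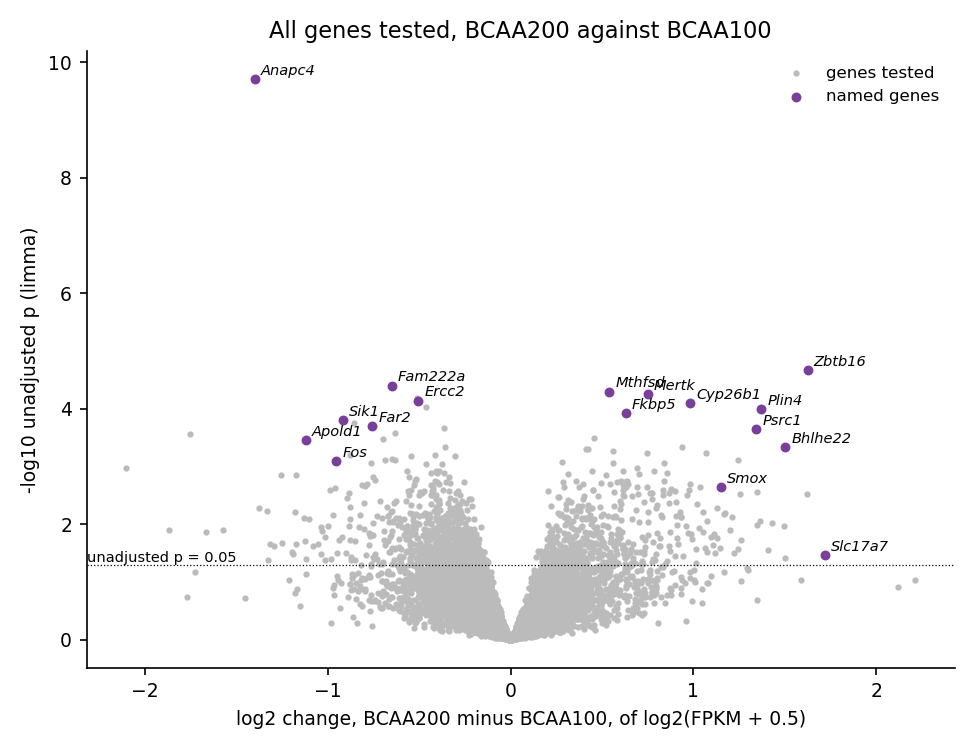
Log2 change of log2(FPKM + 0.5), BCAA200 minus BCAA100 (horizontal axis), against the -log10 of the unadjusted limma p (vertical axis) for each gene tested (grey), with named genes in purple; the dotted line is an unadjusted p of 0.05. Anapc4 stands alone at a change of -1.40, and no other gene passed after adjustment.

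Anapc4 encodes a scaffold subunit of the anaphase-promoting complex, the ubiquitin ligase that drives exit from mitosis and also acts in neurons after division. It lay between 10.9 and 12.6 FPKM with a median of 12.1 FPKM in BCAA200, against 30.9 to 37.7 FPKM with a median of 31.7 FPKM in BCAA100. The groups did not overlap, and the BCAA200 libraries lay close together. The log2 change was -1.40 with a standard error of 0.07 (limma, adjusted p = 2.65e-06), and Anapc4 was lower in 6 of 6 BCAA200 libraries. It fell in females by 1.34 on the log2 scale (adjusted p = 0.000644) and in males by 1.47 (adjusted p = 0.000244). Without BCAA100 male replicates 5 and 6 the change was -1.36 (adjusted p = 5.17e-05), and Anapc4 was again the 1 gene called (0.00725%), with 7.71% of genes at an unadjusted p under 0.05.

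The other 2 diets of lane 1 give the level of Anapc4 without the change of lane. It averaged 24.9 ± 6.72 FPKM in BCAA20 and 27.6 ± 9.68 FPKM in BCAA50, against 32.6 ± 2.61 FPKM in BCAA100 and 12.0 ± 0.640 FPKM in BCAA200 (SD, n = 6 each). The lowest values of these 2 diets were BCAA20 female replicate 3 at 12.6 FPKM and BCAA50 female replicate 2 at 13.2 FPKM, which lay close to the BCAA200 libraries. Against the mean of BCAA20 and BCAA50, BCAA200 differed by -1.02 on the log2 scale, which did not pass (limma on 24 libraries, adjusted p = 0.209). That contrast shares the BCAA200 libraries with the main one, and it called no gene of 13806, with 371 (2.69%) at an unadjusted p under 0.05. Without BCAA20 replicate 3 or BCAA50 replicate 2, the 2 libraries just named, the adjusted p for Anapc4 was 0.0101 or 0.0143. Without any other single lane 1 library Anapc4 did not pass, and these fits were chosen after seeing the data. Without the library labelled BCAA20 male replicate 6 its adjusted p was 0.506, at a change of -1.01. In that fit the within-lane changes of 103 named genes moved by at most 0.17 on the log2 scale with no change of sign. In the authors' deposited table, Anapc4 has a Pearson coefficient of -0.598 with BCAA intake (unadjusted p = 0.00202), which includes these libraries.

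Of 14 genes of the anaphase-promoting complex and its activators that were tested, 12 lay below 0, but 8 did so after median ratio or upper quartile scaling. Without BCAA100 male replicates 5 and 6 it was 7 of 14. The list's median was -0.06, beside -0.05 for all genes. Anapc1, the largest subunit, was next by its p at -0.18, and its adjusted p of 0.511 did not pass. Anapc4 spans chr5:52834012-52867797 on the + strand of GRCm38, and no annotated gene overlaps it in GENCODE M21.

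The window around the start of Anapc4, the one gene called, is shown with that of Fos, an activity-dependent gene whose groups did not overlap either. Both are from RefSeq on GRCm38.p6, from 250 bases before to 50 bases after the RefSeq start. For Anapc4 that start differs from the GENCODE start given above and lies within the GENCODE gene. Capitals mark the GC box GGGCGG on either strand in Anapc4, and in Fos the TGACG core of the cAMP response element and the TATA box TATAAA, each on either strand. The CCAAT box was also searched, and the capitalised matches do not overlap each other.
Anapc4, chr5:52833885-52834184, + strand: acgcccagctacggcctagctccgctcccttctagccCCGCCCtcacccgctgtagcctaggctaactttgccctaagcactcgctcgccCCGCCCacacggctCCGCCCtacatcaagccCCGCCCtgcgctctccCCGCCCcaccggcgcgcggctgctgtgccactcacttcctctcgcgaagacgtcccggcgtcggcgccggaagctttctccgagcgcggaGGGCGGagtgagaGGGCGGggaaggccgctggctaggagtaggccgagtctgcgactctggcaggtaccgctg
Fos, chr12:85473640-85473939, + strand: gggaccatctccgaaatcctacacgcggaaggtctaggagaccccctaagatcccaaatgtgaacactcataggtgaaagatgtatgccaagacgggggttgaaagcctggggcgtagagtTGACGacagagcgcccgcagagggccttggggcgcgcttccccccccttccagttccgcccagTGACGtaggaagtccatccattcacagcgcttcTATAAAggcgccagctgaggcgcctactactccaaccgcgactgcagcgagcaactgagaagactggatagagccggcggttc
The Anapc4 window holds 7 GC boxes and no match to the other motifs. The Fos window holds 2 matches to the cAMP element core, 1 TATA box and 1 GC box, the last not capitalised. Of 32841 windows of 300 bases, 35.7% hold a GC box, 20.8% the cAMP element core, 37.4% a CCAAT box and 13.6% a TATA box. The matches describe these letters and no site was tested.

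Zbtb16, Plin4 and Fkbp5, which respond to glucocorticoids, were among the 10 genes of lowest p towards higher levels in BCAA200, and none passed the threshold. The glucocorticoid receptor is a hormone-activated transcription factor, and stress and the daily corticosterone cycle act through it in the brain. Zbtb16, a zinc-finger transcription factor, lay between 3.44 and 8.53 FPKM with a median of 6.33 FPKM in BCAA200, against 1.14 to 3.22 FPKM with a median of 1.39 FPKM in BCAA100. The groups did not overlap, and the log2 change was 1.62 with a standard error of 0.24 (limma, adjusted p = 0.137). It passed with array weights (adjusted p = 0.0348), with diet by sex means (0.0391), and without BCAA100 replicate 1 (0.0378) or BCAA200 replicate 2 (0.00979). Plin4, which coats lipid droplets, lay between 0.870 and 3.41 FPKM with a median of 1.85 FPKM in BCAA200, against 0.210 to 0.593 FPKM with a median of 0.447 FPKM in BCAA100. It too did not overlap, at a log2 change of 1.37 that is understated by the added 0.5 FPKM (adjusted p = 0.139). All BCAA100 values of Plin4 lay under 1 FPKM, so it met the mean of 1 FPKM only through BCAA200, which favours this direction. Fkbp5, a co-chaperone that lowers the receptor's affinity for hormone, lay between 6.25 and 8.29 FPKM with a median of 7.65 FPKM in BCAA200, against 3.29 to 5.93 FPKM with a median of 4.86 FPKM in BCAA100. Its groups did not overlap either, at 0.63 (adjusted p = 0.151). In GENCODE M21, 4 other genes overlap Fkbp5, 2 of them on its strand, and 1 overlaps Plin4 on the other strand, and how their reads were assigned is unknown.

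Of 20 tested genes of the glucocorticoid list, 8 lay above 0 and 12 below, with a median of -0.12. At an unadjusted p under 0.05, 5 were higher and 3 lower, that is 25% and 15% of the list, beside 3.4% and 5.81% of all genes. Without BCAA100 male replicates 5 and 6 the numbers were again 5 and 3, beside 2.92% and 4.79% of all genes. All gene lists here were written with earlier results of these data known, so a share above that of all genes is not independent. Sult1a1, a phenol sulfotransferase, differed by 0.70 (adjusted p = 0.31). Ddit4, an inhibitor of mTORC1 that the receptor also induces, differed the other way, with 14.4 to 20.7 FPKM in BCAA200 against 22.5 to 34.5 FPKM in BCAA100 and no overlap, at -0.53 (adjusted p = 0.31). The list therefore held members on both sides. By diet, Zbtb16 averaged 2.85 ± 0.880 FPKM in BCAA20, 4.66 ± 2.47 FPKM in BCAA50, 1.75 ± 0.817 FPKM in BCAA100 and 6.33 ± 1.71 FPKM in BCAA200 (SD, n = 6 each). Fkbp5 averaged 5.32 FPKM in BCAA20, 6.16 FPKM in BCAA50, 4.73 FPKM in BCAA100 and 7.53 FPKM in BCAA200. For both genes BCAA100, the lane 2 group, had the lowest mean, and 1 or more BCAA50 libraries overlapped those of BCAA200.

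**Figure D3:**
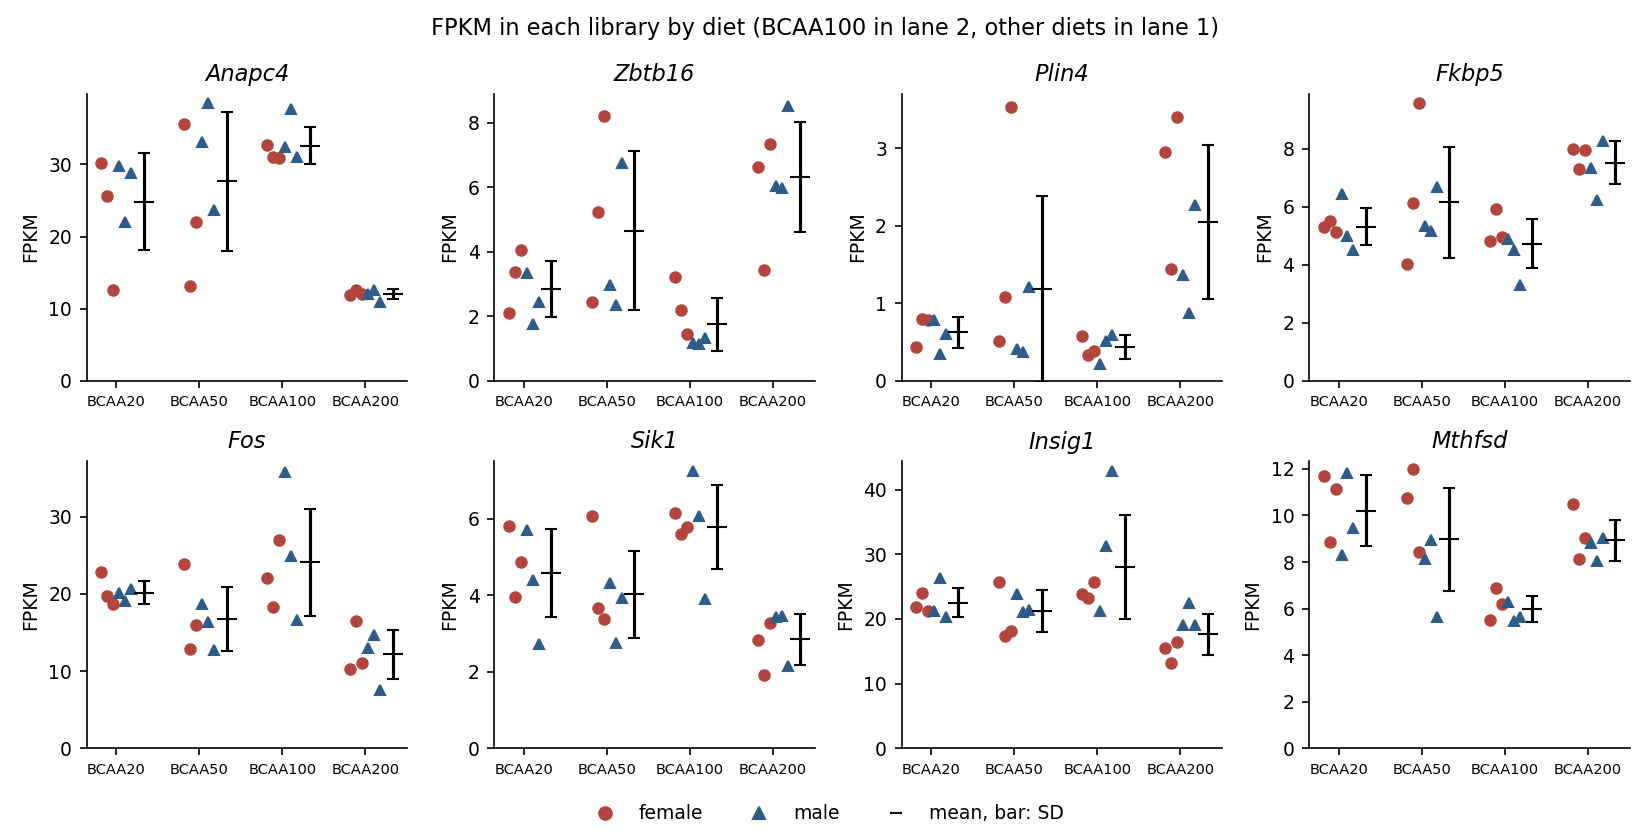
FPKM (vertical axes, linear, from 0) of 8 genes in each library by diet, from the lowest to the highest BCAA content; circles are females, triangles are males, the dash is the mean and the bar 1 SD (n = 6 each), drawn no lower than 0, and BCAA20 male replicate 6 is drawn as labelled. The BCAA200 libraries lie at 10.9 to 12.6 FPKM for Anapc4, where BCAA20 and BCAA50 each have 1 library at 12.6 and 13.2 FPKM, and Mthfsd lies at 5.45 to 6.87 FPKM in BCAA100, where 1 BCAA50 library also lies at 5.64 FPKM.

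For some of the remaining higher genes BCAA200 lay close to the other lane 1 diets. Mthfsd, whose product carries a folate synthetase domain, lay between 8.06 and 10.5 FPKM in BCAA200, against 5.45 to 6.87 FPKM in BCAA100, with no overlap (log2 change 0.54, adjusted p = 0.137). Its mean was 10.2 FPKM in BCAA20 and 8.98 FPKM in BCAA50, and BCAA200 differed from these by -0.08. Cyp26b1, which degrades retinoic acid, averaged 2.77 ± 0.370 FPKM in BCAA200 and 1.23 ± 0.579 FPKM in BCAA100 (SD, n = 6 each), with a log2 change of 0.98 (adjusted p = 0.137, and 0.0414 with diet by sex means) against 0.05 within lane 1. Gpr17, a receptor of differentiating oligodendrocyte precursors, lay at 8.32 to 11.2 FPKM in BCAA200, against 5.84 to 7.93 FPKM in BCAA100. Its change was 0.42 (adjusted p = 0.267), beside 0.05 within lane 1. Mertk, a receptor kinase for the uptake of dying cells, lay at 7.07 to 11.3 FPKM in BCAA200, against 3.65 to 6.70 FPKM in BCAA100. It differed by 0.75 (adjusted p = 0.137) and by 0.38 within lane 1. Psrc1, a spindle protein, differed by 1.34, and Kcnn2, a calcium-activated potassium channel, by 0.46. Bhlhe22, a transcription factor of cortical neurons, averaged 10.9 FPKM in BCAA200 and 4.27 FPKM in BCAA100. The groups overlapped in each of these 3.

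Among the 10 genes of lowest p towards lower levels in BCAA200 were Sik1 and Apold1, which answer cell activity, and with Fos these missed the threshold. Immediate early genes are transcribed within minutes of a stimulus without new protein synthesis, so their levels also follow the last minutes before collection. Fos, a subunit of the AP-1 transcription factor, lay between 7.58 and 16.4 FPKM with a median of 12.0 FPKM in BCAA200, against 16.7 to 35.8 FPKM with a median of 23.5 FPKM in BCAA100. The groups were next to each other without overlap, at a log2 change of -0.96 with a standard error of 0.21 (limma, adjusted p = 0.285). Sik1, a kinase induced by activity that restrains CREB signalling, lay between 1.92 and 3.46 FPKM in BCAA200, against 3.90 to 7.25 FPKM in BCAA100, at -0.92 (adjusted p = 0.18). Apold1, an early response gene of endothelium, lay between 0.432 and 1.17 FPKM in BCAA200, against 1.55 to 3.72 FPKM in BCAA100, at -1.12 (adjusted p = 0.23), also without overlap. Apold1 met the mean of 1 FPKM mainly through BCAA100, which favours this direction. Against the lane 1 diets the differences were -0.60 for Fos, -0.51 for Sik1 and -0.37 for Apold1.

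Of 24 immediate early genes, 16 lay below 0 with a median of -0.17, and 2 of them, Sik1 and Fos, were lower at an unadjusted p under 0.05 (8.33% of the list, beside 5.81% of all genes). Without BCAA100 male replicates 5 and 6 this was 22 of 24 with a median of -0.59, beside 58.3% below 0 and a median of -0.03 for all genes, and 6 were lower at that level, beside 4.79% of all genes. Dusp1, a phosphatase that ends MAP kinase signals, differed by -0.27 and overlapped.

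Among the remaining lower genes, Fam222a lay at 1.99 to 2.57 FPKM in BCAA200, against 3.17 to 4.50 FPKM in BCAA100 (log2 change -0.65, adjusted p = 0.137). Ercc2, a DNA helicase of the TFIIH complex, lay at 8.60 to 10.1 FPKM in BCAA200, against 11.1 to 14.7 FPKM in BCAA100 (-0.51, adjusted p = 0.137). Neither gene overlapped, nor did Rbm48, a factor of minor intron splicing, at -0.86, or H3f3c, a histone H3 gene whose reads may be shared with its near-identical copies, at -0.36. Far2, a fatty acyl-CoA reductase, differed by -0.76 and Rcbtb1 by -0.51, with overlap, and Far2 passed without BCAA100 replicate 2 (adjusted p = 0.0118). The row Mir7019, a microRNA gene that total RNA libraries measure poorly, was at a mean of 0.591 FPKM in BCAA200 and 3.04 FPKM in BCAA100, and its reads cannot be assigned to a mature microRNA. The row met the mean of 1 FPKM only through BCAA100.

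Most genes of BCAA breakdown lay below 0, as did 62.7% of all genes, and none passed. All 8 genes of the transaminases and the BCKDH complex lay below 0 on the deposited values and 7 after median ratio or upper quartile scaling, with a median of -0.11 beside -0.05 for all genes. Bckdhb, the E1 beta subunit, lay at 8.90 to 11.2 FPKM in BCAA200, against 9.93 to 14.5 FPKM in BCAA100 (-0.26, adjusted p = 0.461). Bcat1, the cytosolic transaminase, lay at 9.25 to 16.0 FPKM in BCAA200, against 11.8 to 27.2 FPKM in BCAA100 (-0.45, adjusted p = 0.545). The groups overlapped in both. Against the lane 1 diets Bckdhb differed by 0.55 and Bcat1 by -0.14. In that contrast 6 of the 8 genes lay below 0, beside 54.1% of all genes, with a median of -0.02. Bckdk, the kinase that switches the complex off, averaged 8.32 ± 0.690 FPKM in BCAA200 and 8.51 ± 0.721 FPKM in BCAA100 (SD, n = 6 each), a difference within its spread that turned positive under both scalings.

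Downstream of the complex, 8 of 9 leucine breakdown genes lay below 0, with a median of -0.23, and 7 did after either scaling. Auh, which hydrates 3-methylglutaconyl-CoA, lay at 22.2 to 25.7 FPKM in BCAA200, against 25.8 to 39.3 FPKM in BCAA100, without overlap (-0.37, adjusted p = 0.285). Mccc2, a subunit of methylcrotonyl-CoA carboxylase, differed by -0.28 (adjusted p = 0.379) and Hmgcll1, an HMG-CoA lyase, by -0.37 (adjusted p = 0.389). These 3 were 33.3% of the list at an unadjusted p under 0.05, beside 5.81% of all genes. Against the lane 1 diets the same genes differed by 0.18, 0.03 and -0.02, and the median without BCAA100 male replicates 5 and 6 was -0.08. Of 16 isoleucine and valine breakdown genes, 13 lay below 0 (12 after either scaling), with a median of -0.08, and without BCAA100 male replicates 5 and 6 it was 11 of 16 and -0.02. Hibadh, the 3-hydroxyisobutyrate dehydrogenase of valine breakdown, was without overlap at 22.9 to 27.2 FPKM in BCAA200, against 27.3 to 34.9 FPKM in BCAA100 (-0.28, adjusted p = 0.356). Echs1, enoyl-CoA hydratase, differed by -0.39 and Abat, the transaminase of GABA that also acts on a valine intermediate, by -0.41, both with an adjusted p of 0.31.

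The carriers that bring BCAA into the brain included 2 with higher levels in BCAA200, and neither passed. Slc7a5, the LAT1 transporter of the blood-brain barrier, lay at 13.9 to 16.9 FPKM in BCAA200, against 11.7 to 15.1 FPKM in BCAA100 (0.18, adjusted p = 0.513). Slc7a8, the related LAT2, lay at 11.6 to 16.0 FPKM in BCAA200, against 7.35 to 13.5 FPKM in BCAA100 (0.36, adjusted p = 0.477). Both overlapped, and 4 of 7 tested carriers lay above 0, with a median of 0.14. Of 42 mTORC1 amino acid sensing genes, 37 lay below 0 and 31 did after either scaling, with a median of -0.10. Lamtor4, a part of the lysosomal Ragulator anchor, differed by -0.22, and Lars, the leucyl-tRNA synthetase that senses leucine, by -0.14, with adjusted p of 0.454 and 0.54. The ATF4 list, which answers a shortage of amino acids, had 29 of 37 genes below 0 (22 and 27 after median ratio and upper quartile scaling) and a median of -0.09. Apart from Ddit4, Atf3, a stress-induced transcription factor, differed by -0.93 and Aldh18a1, a proline synthesis enzyme, by -0.28, whereas Nupr1, a stress-induced chromatin protein, differed by 0.62, and all 3 overlapped.

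No feeding peptide passed the test. Npy, which drives feeding, averaged 50.8 ± 14.4 FPKM in BCAA200 and 37.3 ± 19.2 FPKM in BCAA100 (SD, n = 6 each, log2 change 0.63, adjusted p = 0.612). Pomc, the melanocortin precursor that restrains feeding, ranged from 0.640 to 23.1 FPKM in BCAA200 and from 0.408 to 45.1 FPKM in BCAA100. Cartpt ranged from 11.2 to 50.5 FPKM in BCAA200 and from 19.1 to 93.2 FPKM in BCAA100. Hcrt had a median of 32.9 FPKM in BCAA200 and 43.4 FPKM in BCAA100, and Pmch, the melanin-concentrating hormone precursor, 202 FPKM in BCAA200 and 203 FPKM in BCAA100. The sign of Hcrt and Pmch turned without BCAA100 male replicates 5 and 6, to -1.21 and -0.56. Cck, a satiety peptide also abundant in cortex, averaged 120.0 ± 42.3 FPKM in BCAA200 and 65.0 ± 34.9 FPKM in BCAA100 (SD, n = 6 each), a log2 change of 1.05 (adjusted p = 0.382). Its receptor Cckbr differed by 0.72 (adjusted p = 0.454). The somatostatin receptor Sstr2 and the cannabinoid receptor Cnr1 differed by 0.56 and 0.36, and of 21 feeding receptors 14 lay above 0. Without BCAA100 male replicates 5 and 6, 10 of 20 lay below 0. Cck is also one of the cortex and hippocampus markers, whose sums are given above. With their score as a covariate Cck differed by 0.56 and Cckbr by 0.10, and with scores of 4 regions by 0.24 and -0.01. The score includes Cck itself, so part of the smaller change of Cck is built in.

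Serotonin genes showed no called difference. Tph2, the enzyme that commits tryptophan to serotonin, lay at 0.215 to 7.30 FPKM in BCAA200, against 0.092 to 0.955 FPKM in BCAA100, with the highest value in BCAA200 male replicate 4 (1.24, adjusted p = 0.491). Its BCAA100 values all lay under 1 FPKM, so it met the mean of 1 FPKM only through BCAA200. Htr3a, the ion channel receptor, lay at 2.40 to 4.20 FPKM in BCAA200, against 0.365 to 3.22 FPKM in BCAA100 (0.90, adjusted p = 0.354). Htr1b differed by -0.42, Htr2a by -0.16 and Htr2c by -0.11, each with overlap. Of 14 serotonin genes, 6 lay above 0 and 8 below.

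Genes of inhibitory transmission lay lower in part. Of 25 GABA genes, 9 were lower (36%, beside 5.81% of all genes) and 1 higher at an unadjusted p under 0.05. Of the 25, 14 lay below 0 with a median of -0.21, beside 62.7% and -0.05 for all genes. Without BCAA100 male replicates 5 and 6, 6 were lower at that level, beside 4.79% of all genes, and 19 lay below 0, beside 58.3%. With scores of 4 regions as covariates 11 lay below 0, with a median of 0.02. Gad1 and Gad2, the enzymes that make GABA, averaged 115 and 55.2 FPKM in BCAA200 and 165 and 74.4 FPKM in BCAA100, differences of -0.48 and -0.45 (adjusted p = 0.451 and 0.445). Gphn, the scaffold of inhibitory synapses, lay at 15.5 to 18.4 FPKM in BCAA200, against 18.4 to 21.4 FPKM in BCAA100 (-0.21, adjusted p = 0.36). Within lane 1 these 3 genes differed by -0.01, -0.12 and -0.02. Of 31 glutamate genes, 20 lay above 0 with a median of 0.06, and without BCAA100 male replicates 5 and 6 18 of them lay below 0.

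Cholesterol synthesis is switched on by SREBP2 when sterols in the endoplasmic reticulum are low. Of 27 such genes, 25 lay below 0 on the deposited values, 21 after median ratio and 23 after upper quartile scaling, with a median of -0.19. At an unadjusted p under 0.05, 6 were lower (22.2%, beside 5.81% of all genes) and none higher, and 3 were lower without BCAA100 male replicates 5 and 6. Insig1, which holds SREBP in the endoplasmic reticulum, lay at 13.2 to 22.4 FPKM with a median of 17.7 FPKM in BCAA200, against 21.2 to 42.9 FPKM with a median of 24.8 FPKM in BCAA100 (-0.63, adjusted p = 0.285). Fdps, a farnesyl diphosphate synthase, differed by -0.29 and Stard4, a cholesterol carrier, by -0.36. Within lane 1, 24 of the 27 genes lay below 0, beside 54.1% of all genes, with a median of -0.15, and Insig1 differed by -0.31.

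Oxidative phosphorylation and ribosomal protein genes lay slightly lower, by amounts that depended on 2 libraries. Of 75 nuclear oxidative phosphorylation genes, 62 lay below 0 (54 after either scaling), with a median of -0.12, and 18 (24%) were lower at an unadjusted p under 0.05, beside 5.81% of all genes. Without BCAA100 male replicates 5 and 6, 41 of the 75 lay below 0, beside 58.3% of all genes, with a median of -0.01. In that fit 1 gene was lower at an unadjusted p under 0.05, beside 4.79% of all genes. Atp5g3, Atp5f1 and Atp5b, subunits of the ATP synthase, differed by -0.30, -0.75 and -0.17 with all 12 libraries. Of 79 cytosolic ribosomal protein genes, 71 lay below 0 (55 and 57 after median ratio and upper quartile scaling), with a median of -0.10. Without the 2 libraries 41 of the 79 lay below 0 and the median was -0.01. With all 12 libraries the median was 0.03 in females beside -0.23 in males. Rpl36 differed by -0.29.

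Markers of brain regions lay to both sides of 0, by amounts that moved with the 2 BCAA100 libraries named above. Of 19 cortex and hippocampus markers, 17 lay above 0, with a median of 0.87 and 9 higher at an unadjusted p under 0.05 (47.4% of the list, beside 3.4% of all genes). Without BCAA100 male replicates 5 and 6, 6 were higher, beside 2.92% of all genes. The median was 0.36 without those libraries, 0.30 in females and 1.46 in males. Slc17a7 differed by 1.72, Neurod2, a transcription factor of excitatory neurons, by 1.13, Nrgn, the calmodulin-binding neurogranin, by 1.02 and Camk2a, the postsynaptic kinase, by 0.93. Nptx1, a secreted pentraxin of excitatory synapses, differed by 0.64 (adjusted p = 0.31). Thalamus markers had 10 of 12 genes below 0 with a median of -0.44, among them Zic1 at -0.76 and Calb2 at -0.67, and a median of -0.08 without the 2 libraries. Myelin genes had 19 of 20 below 0 with a median of -0.33, which was -0.15 without them, and Opalin, a late myelin protein, differed by -0.81. With the cortex and hippocampus score as a covariate the myelin median turned to 0.09. With scores of 4 regions it was 0.18, and 2 of the 20 lay below 0, beside 50.5% of all genes. Other regional lists lay lower without the 2 libraries. Of 16 striatum markers, 11 lay below 0 with a median of -0.13, and 14 with a median of -0.42 without them. Of 20 tested hypothalamic nuclei markers, 11 lay below 0 with a median of -0.19, and 15 with a median of -0.46 without them. With scores of 4 regions as covariates, Anapc4 changed by -1.33 (limma, adjusted p = 0.0196), and it was the 1 gene called.

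**Figure D4:**
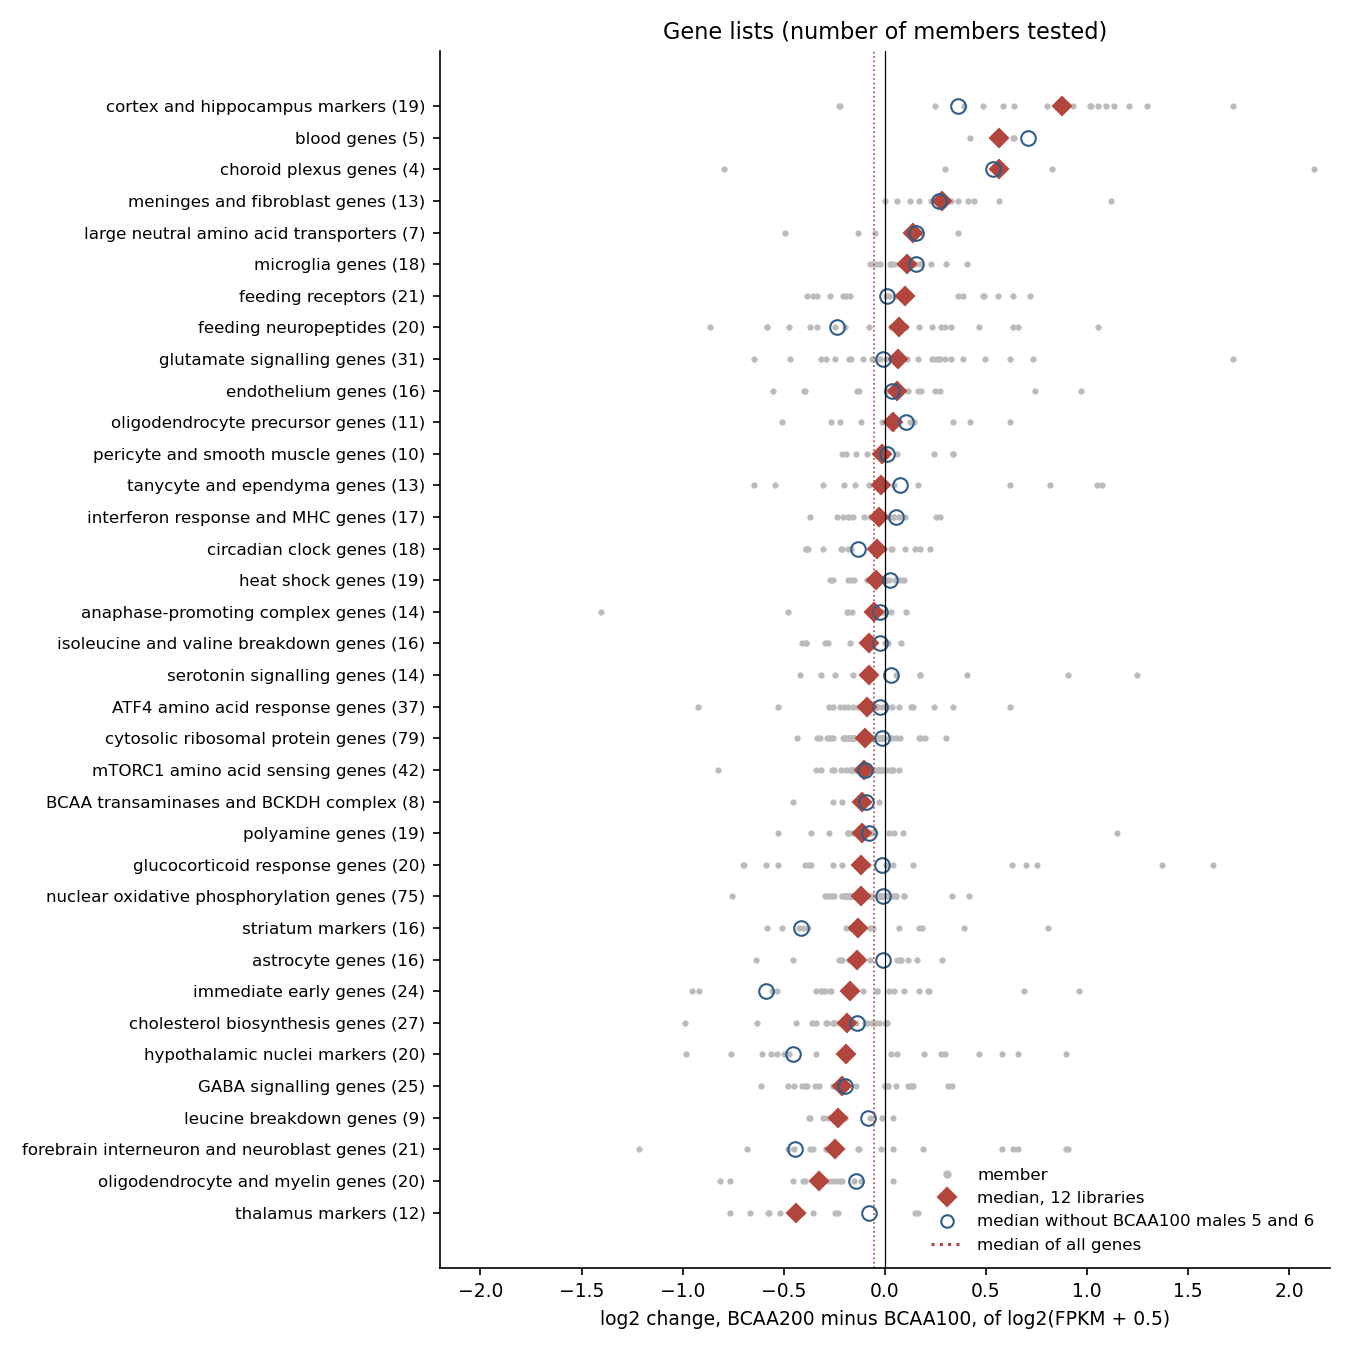
Log2 change of log2(FPKM + 0.5), BCAA200 minus BCAA100 (horizontal axis), of each tested member (grey dots) of 36 gene lists with the number tested, ordered by median; red diamonds are medians over 12 libraries, blue circles are medians without BCAA100 male replicates 5 and 6, and the dotted line is the median of all genes at -0.05. The cortex and hippocampus median falls to 0.36 and the thalamus median to -0.08 without those 2 libraries, and the immediate early gene median falls to -0.59.

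Glia and vessels showed smaller differences. Of 18 microglia genes, 14 lay above 0 with a median of 0.11. In females 18 lay above 0 with a median of 0.25, and in males 7 with a median of -0.07, a difference that was not tested for the list. Tmem119 and Csf1r, both microglial surface proteins, differed by 0.40 and 0.30 over both sexes. Of 11 oligodendrocyte precursor genes, 6 lay above 0, and Pdgfra, the growth factor receptor that marks these cells, lay at 8.12 to 15.1 FPKM in BCAA200, against 4.97 to 9.32 FPKM in BCAA100 (0.62, adjusted p = 0.314). Endothelial genes split, with 4 higher and 2 lower of 16 at an unadjusted p under 0.05 (25% and 12.5%, beside 3.4% and 5.81% of all genes). Mfsd2a, the carrier of docosahexaenoic acid across the blood-brain barrier, lay at 9.24 to 14.1 FPKM in BCAA200, against 5.08 to 9.28 FPKM in BCAA100 (0.74, adjusted p = 0.277). Abcg2, an efflux pump, differed by 0.97, whereas Tek, the angiopoietin receptor, differed by -0.39 and Slco1a4, an organic anion carrier, by -0.55. Of 13 meninges and fibroblast genes, 12 lay above 0 with a median of 0.28, including Dcn at 1.12 and Mgp at 0.57. Col1a1 and Lum averaged 0.881 and 0.982 FPKM in BCAA100. They met the mean of 1 FPKM only through BCAA200, which favours this direction. The level summed over the list was 92.1 to 136 FPKM in BCAA200 and 43.6 to 125 FPKM in BCAA100.

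Within the sexes, 3 genes passed in females (0.0217% of those tested), and 1, Anapc4, passed in males (0.00723%). At an unadjusted p under 0.05 there were 596 genes in females (4.31%) and 1288 in males (9.31%). Smox, spermine oxidase, rose in females to 21.0, 21.2 and 14.9 FPKM in BCAA200, against 3.57, 5.80 and 3.49 FPKM in BCAA100 (log2 change 2.05, limma, adjusted p = 0.00445). In males it lay at 15.9, 14.6 and 14.5 FPKM in BCAA200, against 10.6, 12.6 and 14.6 FPKM in BCAA100 (0.25, adjusted p = 0.709). Over both sexes Smox differed by 1.15 (adjusted p = 0.31), and it passed with all 24 libraries in the fit (0.0296), with 23 of them (0.0466, without the library labelled BCAA20 male replicate 6) or diet by sex means (0.0391). The BCAA100 females were the low group of the 4, and Smox averaged 13.5 FPKM in BCAA20 and 13.7 FPKM in BCAA50.

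Por, the reductase that passes electrons to cytochrome P450 enzymes, fell in females to 2.73, 2.45 and 5.72 FPKM in BCAA200, against 26.4, 21.4 and 20.1 FPKM in BCAA100 (-2.56, adjusted p = 0.00445). In males it lay at 25.1, 26.1 and 21.5 FPKM in BCAA200, against 23.2, 32.5 and 23.5 FPKM in BCAA100 (-0.11, adjusted p = 0.915). Without any 1 female library Smox and Por were again called, at adjusted p of up to 0.0416. Over all 24 libraries Por took 2 separate levels, with 7 libraries from 2.45 to 5.72 FPKM and 17 from 20.1 FPKM upwards. The low level also held 1 female and 1 male library each of BCAA20 and BCAA50, whose sex-linked genes matched their labels. In GENCODE M21, 2 other genes overlap Por on the opposite strand.

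The difference between the sexes itself was called in no gene by limma, with 677 genes (4.89%) at an unadjusted p under 0.05. For Por it was -2.45 and for Smox 1.79, with an adjusted p of 0.425, the lowest of the test. Without BCAA200 replicate 3 the difference between the sexes was called for Por (adjusted p = 0.00662) and Atf7ip (0.0279). Atf7ip, a partner of the histone methyltransferase SETDB1, and Senp7, a SUMO protease, differed by -0.94 and -1.01 in females and by 1.62 and 0.60 in males. Slc35c2 and Cnot2, a subunit of the deadenylase complex, differed by 0.48 and 1.21 in females and by -0.73 and -0.78 in males. In males, Nptxr, the neuronal pentraxin receptor, lay at 115, 131 and 171 FPKM in BCAA200, against 43.1, 38.9 and 25.4 FPKM in BCAA100, without overlap (1.96, adjusted p = 0.0568). Zbtb18, a transcriptional repressor of cortical neurons, differed in males by 1.25 with the same adjusted p, as did Cyp26b1 by 1.36. With a pseudocount of 0.1 these 3 and Zbtb16 passed in males (adjusted p = 0.0476). Lower in males were Ncl, nucleolin, at -1.47, and Plgrkt, a plasminogen receptor, at -1.17, neither past the threshold. All male differences above include the 2 libraries with low Slc17a7, as do those of Neurod2 and Slc17a7, 1.94 and 3.09. Over all 24 libraries Nptxr took 2 separate levels, with 4 libraries from 25.4 to 43.1 FPKM and 20 from 88.8 FPKM upwards. The low level held the 3 BCAA100 males and 1 BCAA50 library.

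**Figure D5:**
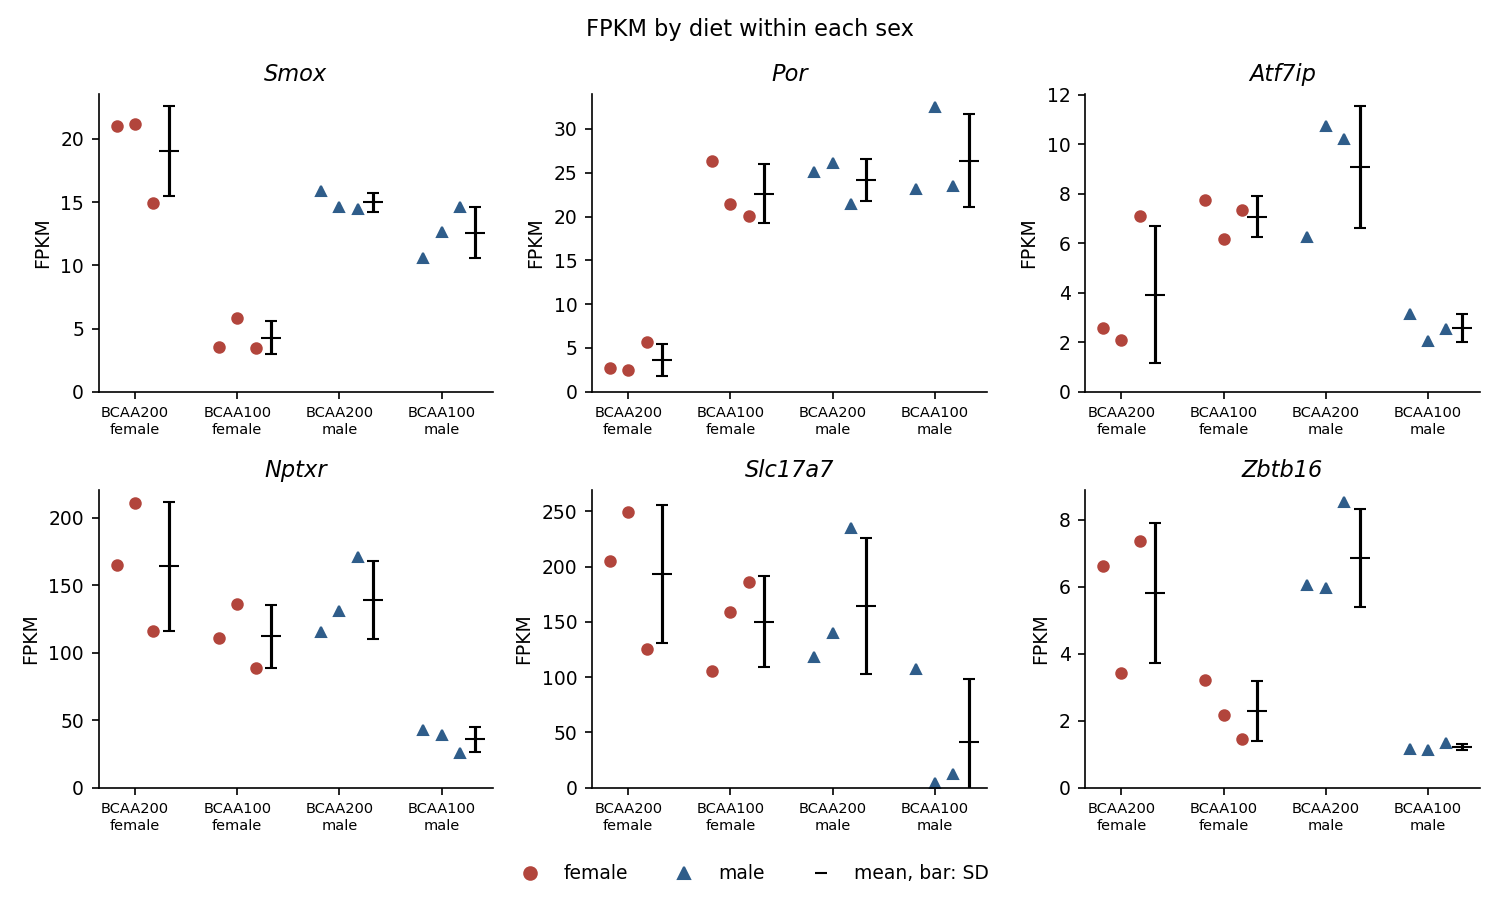
FPKM (vertical axes, linear, from 0) of 6 genes in BCAA200 and BCAA100 females and males; the dash is the mean and the bar 1 SD (n = 3 each), drawn no lower than 0. Smox and Por separate the diets in females, at 14.9 to 21.2 against 3.49 to 5.80 FPKM and at 2.45 to 5.72 against 20.1 to 26.4 FPKM, while Nptxr separates them in males, where BCAA100 replicates 5 and 6 had low Slc17a7.

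Smox belongs to the polyamine genes, of which 15 of 19 lay below 0 with a median of -0.12. Sat1, which acetylates spermidine and spermine for export, differed by -0.28. Amd1, which supplies the aminopropyl donor, and its near-identical copy Amd2 differed by -0.18 each, and their reads may be shared. Clock genes held 4 lower and 2 higher of 18 at an unadjusted p under 0.05 (22.2% and 11.1%, beside 5.81% and 3.4% of all genes), among them the repressors Cry1 at -0.39, Nr1d2 at -0.22 and Nfil3 at -0.38. The hour of collection is unknown here. Ttc7b, a scaffold of a phosphoinositide kinase, lay at 48.0 to 53.2 FPKM in BCAA200, against 35.4 to 45.9 FPKM in BCAA100 (0.29, adjusted p = 0.31), and its mean was 40.8 FPKM in BCAA20 and 41.1 FPKM in BCAA50.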

How the data were processed

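Stranded TruSeq libraries of total hypothalamic RNA were analysed, per the labels' protocols. The authors deposited FPKM values per gene symbol (18777 symbols, 2 intake rows) with, per gene, a Pearson coefficient with intake (a score) and its p-value. The submitters' processing notes name the build GRCm38 and the tools TopHat2 2.0.14 and StringTie 1.2.4. Read depth is unknown: 11.4% of 14843 low values lay within 0.05 of a whole multiple, against 10% if evenly spread.

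Values were taken as log2(FPKM + 0.5), a scale that understates changes of low genes. Genes averaging 1 FPKM or more over the 12 libraries entered limma 3.58.1 under R 4.3.3 (trend, robust), with diet and sex, or diet by sex means. Genes under a mean of 1 FPKM in 1 diet entered only through the other, which favours that direction, also among list members. Tests were two-sided, with Benjamini-Hochberg adjustment over all genes. The code was tested on simulated data. The labels give 3 animals per sex and diet and a bracketed number in each title, whose meaning is not stated. Named genes are up to 10 per direction, 4 per list and 3 per direction in each sex contrast by lowest p, plus a set list, without predicted genes, and a few of them are not reported here. Members and lists were chosen with earlier results of these data known. Correlations between libraries across genes, which are not independent, were 0.910 to 0.965 within groups and 0.885 to 0.964 between. RefSeq promoter windows matched 80 of 103 genes considered for the text.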

Additional observations from a re-analysis of the deposited data

Results flagged for a closer look

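Within groups of 6 libraries, 16 of 206 gene and group combinations held a library far from the other 5, and they fall in 13 genes. The limit used gives about 1 in 20 for independent, normally distributed values. FPKM of selected genes that vary together need not meet this, so that rate is no reference here. BCAA100 male replicate 6 was far from its group in 7 genes. Gpr17 was at 5.84 FPKM, Hcrt at 0 FPKM, Ddit4 at 34.5 FPKM, Opalin at 21.6 FPKM, Aspa at 23.1 FPKM, Cnp at 215 FPKM and Slco1a4 at 16.9 FPKM. BCAA100 male replicate 5 was highest in its group for Anapc4 at 37.7 FPKM and Pomc at 45.1 FPKM. BCAA200 female replicate 2 was far from its group for Mir27b at 7.31 FPKM, Ncl at 50.5 FPKM, Aspa at 1.03 FPKM and Cnp at 41.1 FPKM. BCAA200 male replicate 4 was highest in its group for Pomc at 23.1 FPKM, Tph2 at 7.30 FPKM and Mgp at 42.0 FPKM. The outlying Anapc4 value lay on the side away from BCAA200.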

How the results depend on the processing

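Anapc4 was called in all 18 alternatives to the main comparison and without each of the 12 libraries, at changes from -1.43 to -1.33. The number of called genes was 1 in most; with array weights it was 2 (adding Zbtb16), with all 24 libraries, or 23 without the library labelled BCAA20 male replicate 6, 2 (adding Smox) and with diet by sex means 5 (adding Por, Cyp26b1, Smox and Zbtb16). Leaving out 1 library gave 1 to 2 genes, with 2 without BCAA100 replicate 1 or BCAA200 replicate 2 (Zbtb16) and BCAA100 replicate 2 (Far2). Female counts ran from 3 to 7 without single libraries, with 7 without BCAA100 replicate 3 and 5 without BCAA200 replicate 3. Male counts ran from 1 to 53, with 53 without BCAA100 replicate 4, which leaves the 2 low Slc17a7 libraries, 2 without BCAA100 replicate 6 or BCAA200 replicate 4, and were 5 with a pseudocount of 0.1 and 12 without the BCAA100 libraries with low Slc17a7, where the lone BCAA100 male is assumed to vary like the other groups. Interaction counts ran from 0 to 3 without single libraries (BCAA100 replicates 2, 4, 5 or 6 and BCAA200 replicates 1 or 3 gave 1 or more) and were 7 without the low Slc17a7 libraries. Within lane 1 the count was 0 to 1, with 1 without BCAA20 replicate 3 or BCAA50 replicate 2. With the replicate number as a block the main count was 1, and the female and male counts were 0. The numbers do not pair the animals: correlations of same-numbered deviations ran from -0.29 to 0.10 and 1 of 6 libraries correlated best with its own number. Intake differed by 3.01 in females and 3.26 in males, and per content by 0.498 and 0.512 (exact permutation p of 0.1, 0.1, 0.2 and 0.1, where 0.1 is the smallest possible); without single animals the differences were 3.02 to 3.32 and 0.430 to 0.598. Of 3067 values for 103 genes, 3025 kept direction and side, 10 passed newly and 32 turned sign, none of which were called; the cause was not tested. Without the low Slc17a7 libraries these were Atf7ip at -0.18, Slc35c2 at 0.13, Hcrt at -1.21 and Pmch at -0.56. With the cortex and hippocampus score they were Atf7ip at -0.23, Slc35c2 at 0.18, Bckdk at 0.0044, Npy at -0.083, Hcrt at -1.20, Pmch at -0.68 and Htr2c at 0.044. With 4 regional scores they were Slc35c2 at 0.19, Slc7a8 at -0.0041, Npy at -0.070, Cckbr at -0.014, Htr1b at 0.24, Htr2c at 0.18, Slc17a7 at -0.26, Aspa at 0.21, Cnp at 0.082 and Amd2 at 0.0069. Bckdk was at 0.020 with median ratio and 0.0062 with upper quartile scaling, Slc35c2 at 0.028 with array weights and Hcrt at -0.079 with a pseudocount of 1. Slc17a7 is itself part of the 4 regional scores, so its turn of sign is partly built in. Without single libraries Hcrt ran from -1.09 to 0.85 and Pmch from -0.65 to 0.94. No library of the 12 had sex-linked genes against its label. The fit on 23 libraries and the within-lane alternatives were chosen after seeing the data. With an unknown depth, low genes carry the least precision.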

Other observations

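Of 17 interferon response and MHC genes, 7 lay above 0 and 10 below in BCAA200 against BCAA100, with a median of -0.03. Without BCAA100 male replicates 5 and 6, 11 lay above 0 and 6 below, with a median of 0.05. Of 19 heat shock genes, 8 lay above 0 and 11 below, with a median of -0.05, and none reached an unadjusted p under 0.05. Without those 2 libraries, 12 heat shock genes lay above 0 and 7 below, with a median of 0.02. All 5 tested blood genes lay above 0 with a median of 0.57, and 3 of 4 choroid plexus genes with a median of 0.56. None of these reached an unadjusted p under 0.05. The choroid plexus genes Kcnj13 and Kl averaged 0.689 and 0.836 FPKM in BCAA100. They met the mean of 1 FPKM only through BCAA200, which favours this direction. Choroid plexus genes summed to 6.49 to 390 FPKM in BCAA200 and 7.50 to 26.3 FPKM in BCAA100, and blood genes to 315 to 1629 FPKM in BCAA200 and 222 to 597 FPKM in BCAA100.

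Levels split in 2 across libraries were found in 192 of the 13839 genes (1.39%), counting genes with a gap of at least 1 on the log2 scale and at least 4 of the 24 libraries on each side. Por and Nptxr were among them. Of the 78 genes whose BCAA200 and BCAA100 groups did not overlap, 1 was among them.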
